A study of Mus musculus with 12 samples.

Results

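Dormant and growing D2A1 cells recovered from the lungs of KO hosts were compared gene by gene. D2A1 is a mouse mammary carcinoma line, here carrying a doxycycline-inducible histone H2B-GFP and labelled with CellVue Claret, a membrane dye that fades as cells divide. After injection into the tail vein, GFP+ cells were sorted from digested lungs in small aliquots, and cells still holding the dye were taken as dormant and cells without it as growing. The hosts, young adult female mice, had Tgfbr2 fl/fl alleles and Cre recombinase driven by the Lysozyme 2 promoter, so that the receptor for transforming growth factor beta was deleted in myeloid cells (KO). Both groups shared this host, and the injected tumour cells were not themselves targeted. There were 3 dormant KO and 3 growing KO libraries, all of library batch 2, described in the study as biological triplicates with 3 mice a group. The labels do not tie a library to a mouse. For side-by-side values there were 3 dormant WT and 3 growing WT libraries, all of library batch 1. The genes compared were those at 1 TPM (transcripts per 1000000) or more in at least 3 of the 6 KO libraries, which was 11197 of the 54146 genes listed and of the 20582 genes above 0 in at least 1 of these libraries. TPM divides out transcript length and library total, so levels can be compared between genes, but it keeps no depth.

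Tumour dormancy in a distant organ is a state in which disseminated cells survive without net growth. A cell that leaves the cycle is known to lose the transcripts of DNA replication and mitosis, which are switched on by E2F factors and the MuvB complex, and often lowers Myc, ribosome production and anabolic metabolism. Quiescent cells are also known to depend on contacts with matrix and stroma and on signals that keep immune cells from clearing them, such as CD200 binding its receptor on myeloid cells. The lung they rest in is built from alveolar type 2 cells, which make surfactant, flat alveolar type 1 cells, airway cells, a dense capillary endothelium, fibroblasts, an outer mesothelium and resident macrophages.

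The libraries were first read against their label, mouse mammary tumour cell. The sum of 12 alveolar type 2 genes was 42914, 40671 and 41688 TPM in the dormant KO libraries and 470.5, 483.3 and 478.5 TPM in the growing KO libraries. Sftpc, which codes for surfactant protein C, was the most abundant of all transcripts in every dormant KO library, and Spp1 (osteopontin) in every growing KO library. The data thus go against a pure tumour cell label for the dormant KO libraries, whose name is kept below only as the label. All 11 cell type lists had a higher summed level in dormant KO, without overlap between the groups. The mean of dormant KO over that of growing KO was 87.5 for alveolar type 2, 31.8 for neutrophil, 17.4 for endothelial, 17.3 for mesothelium, 15.97 for macrophage and monocyte, 10.9 for T and NK cell and 7.44 for erythroid and platelet genes. It was 5.21 for fibroblast and pericyte, 4.91 for alveolar type 1, 3.63 for B cell and 2.15 for club and ciliated genes. Each of these sums gave p = 0.1 in a two-sided exact permutation test, the smallest that 3 against 3 libraries allow. Growing KO libraries held such transcripts too. Their mean sums were above those of growing WT, of another library batch, in all 11 lists. For alveolar type 2 genes these were 477.4 against 80.51 TPM, and for club and ciliated genes 1267 against 331.8 TPM. The part of such transcripts in any difference described below was not tested.

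**Figure D1:**
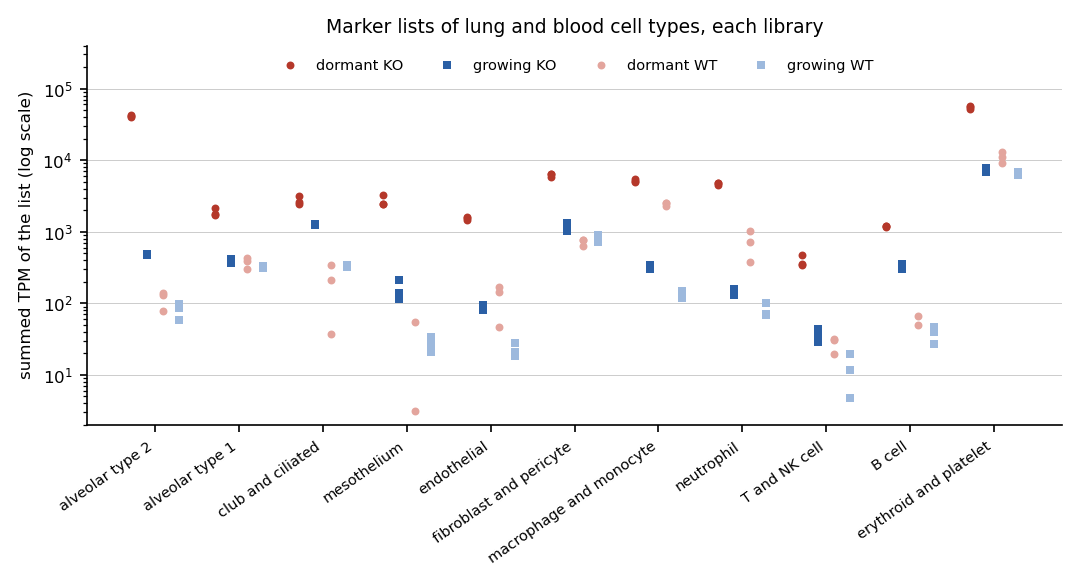
Summed TPM of 11 marker lists (log axis) in each of the 12 libraries, with 1 point per library. Dormant KO libraries (dark red circles) lie above growing KO libraries (dark blue squares) in every list, with 41758 against 477.4 TPM on average for alveolar type 2 genes; WT libraries are shown in pale colours.

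Single markers showed the same layers. Sftpa1 (surfactant protein A) was at 2876, 3170 and 3091 TPM in the dormant KO libraries, against 63.5, 39.9 and 21 TPM in the growing KO libraries. Ager, a receptor of alveolar type 1 cells, was at 391, 633 and 447 TPM against 3.72, 15.3 and 11.5 TPM. Calcrl, a receptor of endothelial cells, was at 88.2, 89.3 and 128 TPM against 0.97, 0.78 and 0.50 TPM. Among mesothelial genes, Efemp1, a matrix protein, was at 465, 745 and 344 TPM against 9.08, 10.4 and 17.3 TPM. Lyz2, the gene whose promoter drives Cre in these hosts and a product of macrophages, neutrophils and type 2 cells, was at 2918, 2944 and 2833 TPM against 128, 90.8 and 135 TPM. S100a8, a neutrophil protein, was at 3207, 2912 and 3361 TPM against 67.8, 87.4 and 66.0 TPM. In all of these the lowest dormant KO library stood above the highest growing KO library. Of the tested list members, 14 of 14 mesothelial, 13 of 15 endothelial, 16 of 19 macrophage and 10 of 12 alveolar type 2 genes were called higher by the test described next, against 12.2% of all genes. Of those tested, 1, 2, 3 and 3 had reached 1 TPM in dormant KO libraries alone, which is how they entered the test. Neutrophil genes were called higher in 6 of 8 and lower in 1, and fibroblast and pericyte genes in 7 of 13 and 2. Alveolar type 1 genes were called higher in 7 of 12, and club and ciliated genes in 3 of 11 with 1 lower. T and NK cell, B cell, and erythroid and platelet genes were called higher in 6 of 9, 6 of 10 and 7 of 8. In that order, 3, 1, 2, 0, 0, 3 and 1 tested members had entered through dormant KO alone. The club cell protein Scgb1a1 was closer, at 2176, 1752 and 1694 TPM against 920, 947 and 947 TPM, and with a log2 difference of 0.99 it came under the limit for a call. Over the alternative settings this difference ran from 0.877 to 1.486. Haemoglobin transcripts took 5.39% ± 0.281 (SD, n = 3) of TPM in dormant KO and 0.731% ± 0.0454 in growing KO, although red cells had been lysed before the sort. Mitochondrial transcripts took 7.18% ± 0.357 and 4.02% ± 0.208. Genes above 0 numbered 14770 to 15315 and 13406 to 14063.

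Differences were tested with limma on log2(TPM + 1), and a gene was called when it differed by 1 log2 unit or more with an adjusted p (Benjamini-Hochberg) no higher than 0.05. On this scale 3476 of 11197 genes (31.0%) were called, 1364 higher (12.2%) and 2112 lower (18.9%) in dormant KO. The 3 dormant KO values did not overlap the 3 growing KO values for 5442 genes (48.6%). The median difference of all genes tested was -0.38, and scaling moved it. With median-ratio scaling the median was 0.03 and the calls were 1777 higher and 1207 lower, and with quantile normalization the median was -0.17 and the calls were 1540 higher and 1453 lower, so that the share of calls that were higher went from 39.2% to 59.6% and 51.5%. Without the growing KO library of replicate 2 there were 1049 higher and 1376 lower calls, and without that of replicate 3 there were 1102 and 1384. All differences below are on the deposited TPM scale and are to be read against the median of -0.38.

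**Figure D2:**
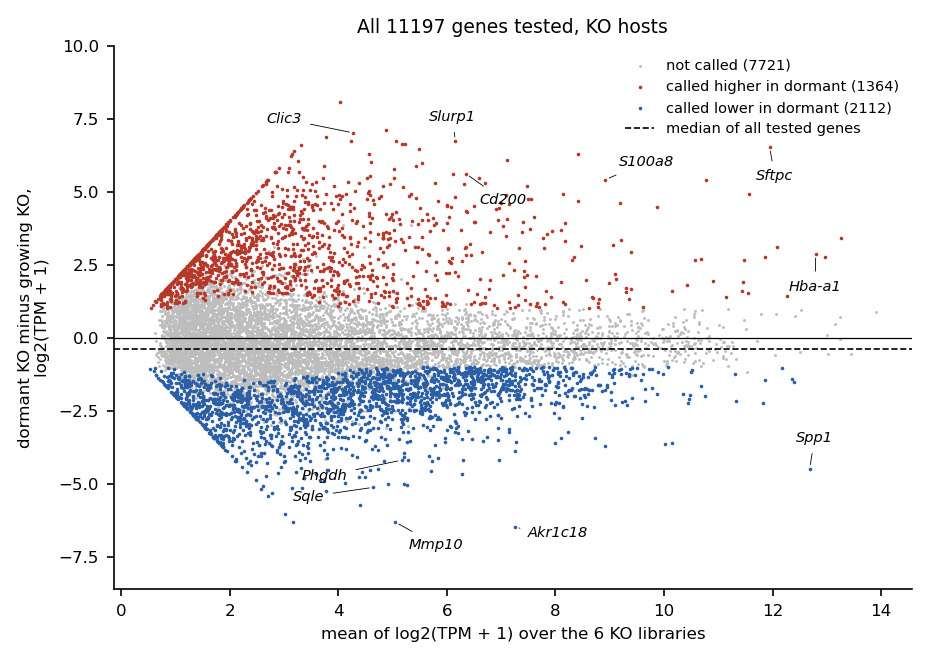
Difference between dormant KO and growing KO (log2 units, vertical axis) against mean log2(TPM + 1) over the 6 libraries (horizontal axis) for the 11197 genes tested. The 1364 genes called higher (red) include Sftpc, and the 2112 called lower (blue) include Spp1, Akr1c18 and Mmp10; the dashed line is the median of -0.38.

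Large differences lay mostly on the higher side. A difference of at least 4 log2 units, or 16-fold, was called higher for 236 genes and lower for 71. The 1364 higher genes took 32.8% to 33.7% of all TPM in dormant KO and 4.09% to 4.74% in growing KO, whereas the 2112 lower genes took 9.09% to 10.2% and 34.2% to 34.6%. Of the genes called higher, 615 had a mean under 1 TPM in growing KO, and of those called lower, 411 had a mean under 1 TPM in dormant KO. The filter let 499 genes in through the dormant KO libraries alone and 339 through the growing KO libraries alone, so that the direction of these genes was fixed by how they entered. Of the genes described with values, S100g, Lypd2, Gas1, Cxcl15, Cd200r1, Smad6 and Calcrl entered through dormant KO and Eva1c, Cxcr6, Aurkb, Sox9 and Smad3 through growing KO alone. Among the 6281 genes at 1 TPM or more in all 6 libraries, 457 were called higher and 1380 lower.

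The growing WT libraries, which took no part in this test, gave a set of abundant genes chosen outside it. Of 1301 tested genes at 100 TPM or more in every growing WT library, 41 (3.15%) were called higher and 489 (37.6%) lower in dormant KO, with a median difference of -0.684. Dormant KO libraries correlated with growing KO libraries at a mean Pearson's r of 0.708 over 9 pairs, across genes that are not independent replicates, and with each other at 0.866, while growing KO correlated with growing WT at 0.916. In bulk libraries such as these, fewer cells of a type and less RNA per cell cannot be told apart.

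Among the genes with the largest rises, Clic3, a chloride channel family member, was at 261, 147 and 273 TPM in the dormant KO libraries, against 3.58, 0.00 and 0.09 TPM in the growing KO libraries, a log2 difference of 7.01 ± 0.63 (SE; adjusted p 0.000202, limma). Slurp1 (ENSMUSG00000022596.3, minus strand of chromosome 15, 74724318 to 74728034, GRCm38), a secreted Ly6/uPAR protein and the gene at the centre of the study, was at 666, 742 and 799 TPM against 6.62, 5.79 and 5.42 TPM, a log2 difference of 6.73 ± 0.212 (adjusted p 1.01e-06). Lypd2, of the same family and close by (minus strand of chromosome 15, 74732247 to 74734329), was at 133, 86.6 and 77.6 TPM and was listed at 0 in every growing KO library. S100g, a calcium-binding protein of epithelia, was likewise at 111, 65.8 and 76.6 TPM against 0 in each. Fxyd3, which regulates the sodium pump, reached 303, 369 and 354 TPM against 9.27, 0.00 and 2.27 TPM, and the glutathione transferase Gsta3 331, 411 and 330 TPM against 0.31, 2.55 and 9.38 TPM. Fabp1 (a fatty acid binding protein), Mfap2 (a microfibril protein) and the gene listed as Retnig had log2 differences of 6.74, 6.46 and 6.64. The neutrophil list holds the symbol Retnlg, which was not tested under that name, so the values listed as Retnig are in no neutrophil sum or count. In each of the genes with the largest rises the groups stood far apart, and the growing KO libraries varied among themselves mainly near the floor.

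By absolute level, the largest gain among the genes named was that of Sftpc (minus strand of chromosome 14, 70520949 to 70524081), from 410 ± 19.9 TPM to 37860 ± 1362 TPM (SD, n = 3), with a log2 difference of 6.53 ± 0.063 and the smallest adjusted p of all genes, 1.04e-09. Crip1, a small LIM domain protein, rose from 3030 ± 111 to 32151 ± 2830 TPM, Tmsb4x, which binds actin monomers, from 553.8 ± 57.8 to 16845 ± 1251 TPM, and Rarres2 (chemerin) from 282 ± 110 to 11443 ± 605 TPM. The alpha globins Hba-a1 and Hba-a2, whose near-identical copies share reads, reached 19200 ± 605 and 20811 ± 949 TPM, and the beta globin Hbb-bs 12868 ± 1244 TPM, with log2 differences of 2.87, 2.76 and 3.12. Rn18s-rs5, a ribosomal RNA related entry, was at 11002, 7715 and 10824 TPM against 1364, 1168 and 1787 TPM. Together with Sftpc, Crip1 and the globins held ranks 1, 2, 4, 5 and 7 of mean TPM in dormant KO.

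**Figure D3:**
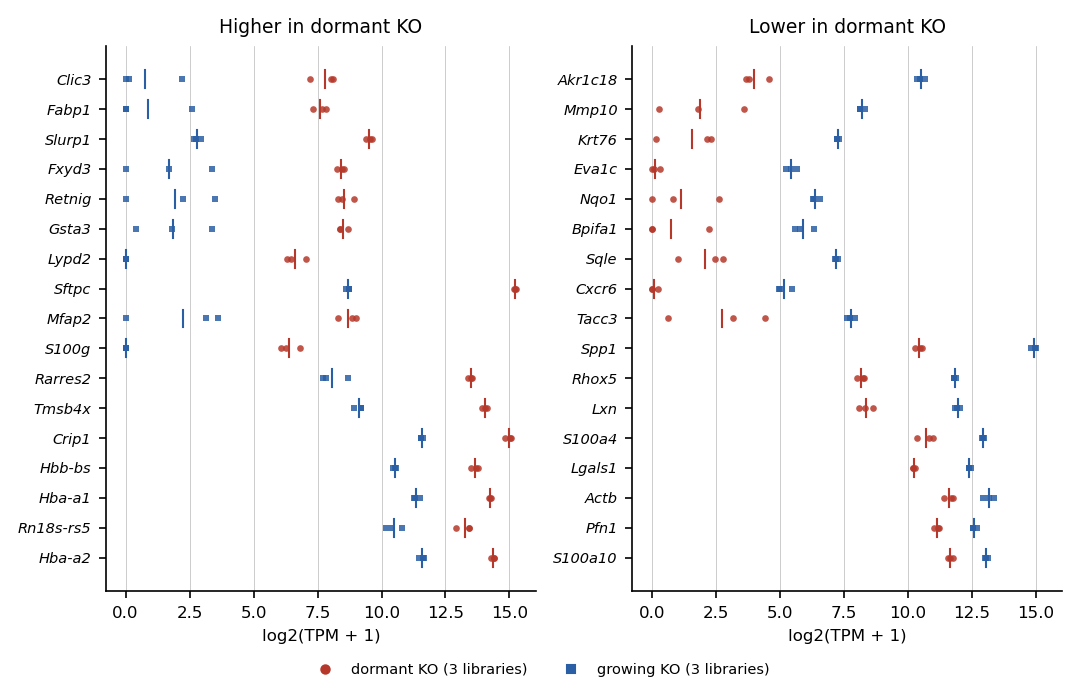
log2(TPM + 1) of the genes described with the largest log2 differences or the largest differences in mean TPM, higher (left) and lower (right) in dormant KO. Circles are the 3 dormant KO and squares the 3 growing KO libraries, and short vertical lines are group means. Only genes whose groups do not overlap were eligible.

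The genes named here for the largest falls were, other than Bpifa1, at 25.3 TPM (the lowest value of Cxcr6) or more in every growing WT library. Akr1c18, a progesterone-metabolizing reductase (minus strand of chromosome 13, 4132615 to 4150654), was at 12.8, 11.6 and 22.9 TPM in the dormant KO libraries, against 1623, 1423 and 1309 TPM in the growing KO libraries, a log2 difference of -6.49 ± 0.262 (adjusted p 4.22e-06). The stromelysin Mmp10 was at 2.47, 0.22 and 11.1 TPM against 279, 319 and 283 TPM, and the keratin Krt76 at 3.5, 0.12 and 3.96 TPM against 158, 148 and 150 TPM. Sqle (squalene epoxidase, of cholesterol synthesis) was at 5.92, 4.48 and 1.02 TPM against 153, 140 and 146 TPM. Nqo1, a quinone reductase, stood at 0.75, 5.22 and 0.00 TPM against 76.8, 92.8 and 80.0 TPM. The mitotic spindle protein Tacc3 had 20.1, 8.06 and 0.56 TPM against 215, 244 and 198 TPM. Eva1c, the chemokine receptor Cxcr6 and the airway protein Bpifa1 fell by 5.31, 5.07 and 5.15 log2 units, with dormant KO means of 0.1, 0.0567 and 1.24 TPM. Bpifa1, a marker in the club and ciliated list, was at 0.21, 0.00 and 3.02 TPM in growing WT.

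Genes that were abundant in growing KO fell as well. Spp1 (plus strand of chromosome 5, 104435118 to 104441050) was at 1236, 1509 and 1427 TPM in the dormant KO libraries, against 32636, 31800 and 28980 TPM in the growing KO libraries, a log2 difference of -4.49 ± 0.084 (adjusted p 8.96e-08). Rhox5, an X-linked homeobox gene, was at 291 ± 28.0 TPM against 3646 ± 98.9 TPM, and Lxn (latexin, a carboxypeptidase inhibitor) at 329 ± 61.9 against 3947 ± 277 TPM. S100a4, a calcium-binding protein of motile cells, fell by 2.22, the galectin Lgals1 by 2.18, actin Actb by 1.53, the actin-binding Pfn1 by 1.44 and the annexin partner S100a10 by 1.41 log2 units. With median-ratio scaling the falls of Pfn1 and S100a10 came under 1 log2 unit. By mean TPM, Spp1 was 22.4 times and S100a10 2.65 times lower.

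Cell cycle genes fell as a group. All 29 tested genes of G2 and mitosis lay below 0, and 25 of 29 were called lower and 0 higher, against 18.9% lower over all genes, with a median difference of -2.65. Cdc20, the activator of the anaphase-promoting complex, was at 19.6, 29.5 and 32.8 TPM in the dormant KO libraries, against 288, 262 and 214 TPM in the growing KO libraries (log2 difference -3.20 ± 0.258, adjusted p 0.000132). Cyclin B2 (Ccnb2) was at 46.4, 79.3 and 30.1 TPM against 344, 251 and 336 TPM, and Cdk1, the kinase it activates, at 34.8, 24.3 and 121 TPM against 397, 441 and 417 TPM. The kinase Aurkb was at 0.32, 0.36 and 0.06 TPM against 38.6, 34.8 and 23.5 TPM, and its partner in the chromosomal passenger complex, Cdca8, at 8.53, 9.38 and 6.52 TPM against 156, 181 and 122 TPM. Birc5 (survivin), also of that complex, was still at 173, 153 and 188 TPM in dormant KO against 762, 720 and 659 TPM. The dormant KO libraries were low in every one of these genes without being at 0, and in Cdk1 the library of replicate 3 stood above the other 2. Cdc20 and Ccnb2 were named after their values had been seen. Mki67, the antigen Ki-67, was not called, at 3.44, 2.56 and 1.22 TPM against 4.73, 7.56 and 5.30 TPM (log2 difference -1.05 ± 0.511, adjusted p 0.152).

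Genes of mitosis are known to carry a cell cycle homology region, TTTGAA, close to their start, where the MuvB complex binds. Promoters were taken from RefSeq on GRCm38.p6, from 250 bases before to 50 after the start, and matched by symbol to 6684 tested genes. TTTGAA or its reverse complement was found in 17 of 22 matched G2 and mitosis promoters (77.3%), in 13% of the 23 matched replication promoters and in 11.6% of all 6684. In all 32851 promoters of that length it was found in 17.9%. TTTGAA and CCAAT were searched, on both strands, after the values of these genes had been seen. These genes code for cyclin B2, an activator of the anaphase-promoting complex and the kinase that cyclin B2 activates: Ccnb2 (chr9:70421505-70421804, minus strand), Cdc20 (chr4:118437294-118437593, minus strand) and Cdk1 (chr10:69352863-69353162, minus strand). Their windows are shown with each TTTGAA match in capitals.
Ccnb2: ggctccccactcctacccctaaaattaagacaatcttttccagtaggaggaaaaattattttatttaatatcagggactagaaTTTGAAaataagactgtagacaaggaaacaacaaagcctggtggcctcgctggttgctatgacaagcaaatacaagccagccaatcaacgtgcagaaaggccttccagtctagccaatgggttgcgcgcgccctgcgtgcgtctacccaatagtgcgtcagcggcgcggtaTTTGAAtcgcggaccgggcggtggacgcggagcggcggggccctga
Cdc20: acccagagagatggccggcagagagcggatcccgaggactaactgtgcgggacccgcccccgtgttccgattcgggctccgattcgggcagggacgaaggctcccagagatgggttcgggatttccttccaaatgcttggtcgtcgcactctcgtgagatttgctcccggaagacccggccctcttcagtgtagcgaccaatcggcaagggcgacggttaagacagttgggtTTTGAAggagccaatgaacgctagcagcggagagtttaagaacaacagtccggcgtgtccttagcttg
Cdk1: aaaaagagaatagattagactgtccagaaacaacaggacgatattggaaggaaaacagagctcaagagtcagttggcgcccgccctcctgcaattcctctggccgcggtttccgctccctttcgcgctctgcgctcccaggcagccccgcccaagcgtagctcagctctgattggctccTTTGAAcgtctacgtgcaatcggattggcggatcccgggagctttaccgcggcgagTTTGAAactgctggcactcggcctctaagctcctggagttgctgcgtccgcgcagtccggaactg
Every TTTGAA match in these windows was on the sense strand. CCAAT was present in 19 of the 22 matched G2 and mitosis promoters (86.4%), against 38.8% of all tested. A match is a description of the sequence and not a measured site.

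DNA replication and E2F targets moved with mitosis. Again all 29 tested genes lay below 0, 25 were called lower (86.2%, against 18.9% of all genes) and 0 higher, and the median difference was -2.53. Of the replicative helicase, Mcm6 was at 16.1, 3.69 and 2.76 TPM against 138, 112 and 119 TPM in growing KO, and its loading partner Cdc45 at 6.63, 0.00 and 0.00 TPM against 66.8, 34.8 and 65.7 TPM. Rrm2, the ribonucleotide reductase subunit that supplies deoxynucleotides, was at 4.98, 16.4 and 23.6 TPM against 219, 239 and 255 TPM. Beside both medians stands that of -0.684 over the 1301 genes at 100 TPM or more in every growing WT library. That set was chosen by abundance alone and 275 of its genes lay above 0, so it does not gauge how far tumour cell transcripts fell. Whether the fall of cell cycle genes went beyond a fall of tumour cell transcripts at large was not tested. Fitted with all 12 libraries, 14 G2 and mitosis genes and 13 replication genes were called lower and 0 higher.

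The brakes of G1 were called about as often as genes at large. Among 16 tested CDK inhibitors and pocket proteins 2 were called higher (12.5%) and 3 lower (18.8%), near the 12.2% and 18.9% of all genes, with a median of 0.33. With either other scaling 3 were called higher and 1 lower. Cdkn1a (p21) was high in both states, at 248, 354 and 228 TPM against 278, 255 and 246 TPM, and overlapped (log2 difference 0.07, adjusted p 0.809). Cdkn2d (p19) fell by 1.59 ± 0.207, from 156 to 51.6 TPM. Gas1, a gene of growth arrest, rose to 3.91, 3.38 and 5.20 TPM from 0.00, 0.33 and 0.30 TPM, having entered the test through dormant KO alone, and the antiproliferative Btg2 to 88.3, 133 and 78.7 TPM from 50.2, 45.2 and 36.5 TPM, a call that was lost without dormant KO replicate 2 or growing KO replicate 3. Without growing KO replicate 2 there was 1 lower call, and without replicate 3 there was 1 in each direction. Of 11 G1 cyclins and kinases 6 were called lower (54.5%, against 18.9% of all genes) and 0 higher. Cdk4, the partner of D cyclins, was at 66.7, 101.02 and 96.8 TPM against 385, 309 and 300 TPM, and Myc at 36.7, 50.3 and 60.2 TPM against 310, 331 and 355 TPM (log2 difference -2.76 ± 0.22, adjusted p 0.000124). Both were lower in each dormant KO library than in any growing KO library.

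Anabolic lists held lower calls beside that of Myc, to be read against the 18.9% of all genes. Of 23 Myc targets and ribosome biogenesis genes 14 were called lower (60.9%) and 0 higher (median -1.39), among them Nop56 of the snoRNA particle, at 85.3 ± 23.6 against 424 ± 10.9 TPM. Of 24 mTORC1 signalling genes 14 were called lower (58.3%) and 0 higher (median -1.45). Phgdh, the first enzyme of serine synthesis, was at 6.55, 14.4 and 4.14 TPM against 172, 144 and 143 TPM. Of 17 glycolysis and hypoxia genes 6 were called lower (35.3%), 11 were not called and 0 were higher (median -1.15). Pkm, pyruvate kinase, was at 53.7, 108 and 65.2 TPM against 841, 907 and 898 TPM (log2 difference -3.59 ± 0.247, adjusted p 6.25e-05). Eno1 (enolase) was at 91.3 ± 53.1 against 907 ± 33.4 TPM and Ldha (lactate dehydrogenase) at 185 ± 34.8 against 962 ± 108 TPM. Of 17 cholesterol synthesis genes 8 were called lower (47.1%) and 0 higher (median -1.79), with Sqle and the desaturase Sc5d at the front. No member of these 4 lists was called higher under median-ratio or quantile scaling, where the counts of lower calls were 8, 10, 5 and 5 and then 9, 13, 5 and 6.

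Proteasome subunits all lay below 0 in the 24 tested, 14 of them called lower (58.3%, against 18.9% of all genes, with a median of -1.14), and 9 called lower with median-ratio scaling (median -0.65). Psmd2, of the regulatory particle, was at 20.4, 18.5 and 16.6 TPM against 100.6, 102 and 135 TPM. Oxidative phosphorylation was more mixed, with 7 of 25 called lower (28%, against 18.9% of all genes), 0 higher and a median of -0.37 beside the -0.38 of all genes. Without growing KO replicate 3, 4 of these were called lower. Ndufb9 of complex I fell from 2904 ± 107 to 932 ± 168 TPM, whereas with median-ratio scaling 2 of this list were called lower and 1 higher and the median turned to 0.12, and with quantile scaling 3 were called lower. In the unfolded protein response 8 of 20 were called lower (40%) and 1 higher (median -0.71). The chaperone Hspa5 (BiP) fell to 187, 284 and 283 TPM from 809, 921 and 872 TPM. With median-ratio scaling this list had 3 calls in each direction, and its 1 higher call was lost without any 1 library other than dormant KO replicate 1.

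**Figure D4:**
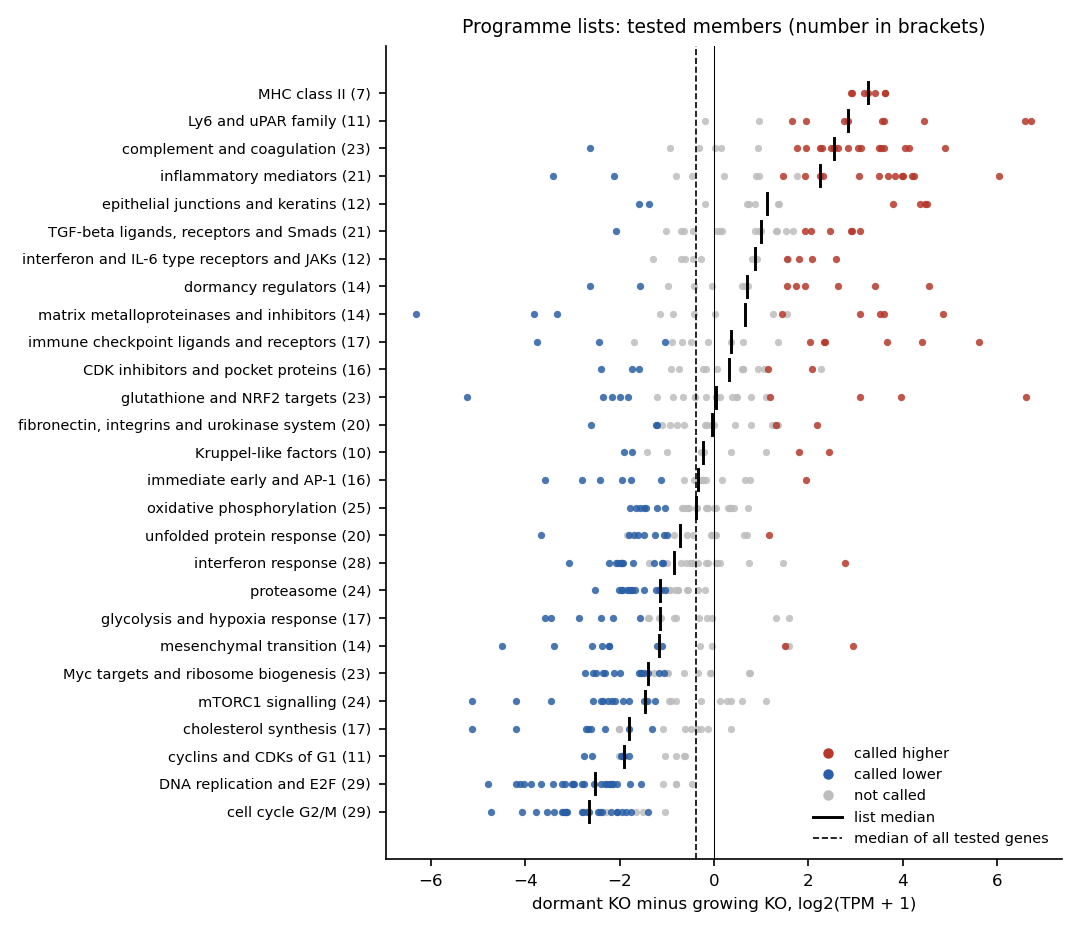
Log2 difference between dormant KO and growing KO for each tested member of 27 programme lists, ordered by their medians (black ticks), with members called higher in red, called lower in blue and not called in grey. G2 and mitosis (median -2.65) and replication (-2.53) lie at the bottom and MHC class II (3.26) at the top; the dashed line is the median of all genes.

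Immune lists differed in the direction of their calls, to be read against 12.2% higher and 18.9% lower over all genes. Of 28 interferon response genes 12 were called lower (42.9%) and 1 higher (3.57%), with a median of -0.84. With median-ratio scaling 8 were called lower and 3 higher (median -0.46), and with all 12 libraries in the fit 7 were called lower and 0 higher. The summed TPM of the list went the other way, at 8441, 9203 and 8882 TPM in dormant KO against 6980, 7760 and 7569 TPM in growing KO. Igtp, an interferon-inducible GTPase named after its value was seen, fell to 38.1, 43.6 and 39.9 TPM from 142, 153 and 179 TPM, and Psmb8, an immunoproteasome subunit, by 1.27 ± 0.149, which was under 1 with median-ratio scaling (-0.77). The chemokine Cxcl9 alone was called higher, at 11.5, 15.9 and 15.1 TPM against 0.75, 1.98 and 1.03 TPM. B2m, the light chain of MHC class I, differed by 0.74 (adjusted p 0.000197), short of the limit of 1, and by 0.125 to 1.241 over the alternative settings. All 7 tested MHC class II genes were called higher (median 3.26), 1 of which had entered through dormant KO alone, among them Cd74, the invariant chain, at 1887, 2050 and 1668 TPM against 255, 247 and 227 TPM. Of 23 complement and coagulation genes 17 were called higher (73.9%) and 1 lower (4.35%), with a median of 2.54, the lower call being lost without any 1 growing KO library, and with all 12 libraries in the fit 11 were called higher. C3, the central component, was at 318, 514 and 356 TPM against 31.3, 20.6 and 45.4 TPM, and its protease partner Cfb at 428, 507 and 442 TPM against 23.4, 49.6 and 53.1 TPM. Beside these lists, the summed macrophage and monocyte genes, which share C1qa and C1qb with the complement list, went from 302.9 to 343.3 TPM in growing KO to 5027 to 5373 TPM in dormant KO, and their part in the rise was not tested.

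Inflammatory mediators were called higher in 13 of 21 (61.9%, against 12.2% of all genes) and lower in 2 (9.52%), with a median of 2.26, and 2 of the 21 had entered through dormant KO alone. The lung chemokine Cxcl15, a product of airway and type 2 cells, was at 97.4, 79.0 and 57.95 TPM against 0.00, 0.38 and 0.17 TPM, and the cytokine Il1b at 115, 51.6 and 63.3 TPM against 0.26, 5.74 and 5.74 TPM. The acute phase protein Saa3 reached 897, 947 and 1128 TPM from 86.9, 49.96 and 99.4 TPM. Against this trend the neutrophil attractant Cxcl1 fell to 147, 103 and 144 TPM from 1265, 1533 and 1391 TPM (log2 difference -3.41 ± 0.17, adjusted p 1.09e-05), whereas the lower call of Cxcl5 was lost without any 1 library other than dormant KO replicate 1. Among immediate early genes 6 of 16 were called lower (37.5%, against 18.9% of all genes) and 1 higher (6.25%), with Fosl1 at 14.3, 15.5 and 4.43 TPM against 134, 129 and 132 TPM and the phosphatase Dusp1 at 575, 975 and 534 TPM against 2476, 2711 and 2528 TPM. Fos itself was at 365, 523 and 409 TPM against 507, 484 and 456 TPM and overlapped.

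Slurp1 and the checkpoint ligand Cd200 stood at the centre of the study. A list of 21 genes was drawn around them, some dealt with in the study and some added as partners in the same pathways (such as Jak1, Jak2, Il6st and Ptk2b), and 18 of the 21 were tested. Egfr, Vtn and Itgb3 were under the filter. Cd200 (ENSMUSG00000022661.14, minus strand of chromosome 16, 45382135 to 45409053), a membrane protein of many cell types including endothelium that restrains myeloid cells, was at 593, 640 and 487 TPM in the dormant KO libraries, against 26.0, 7.16 and 6.19 TPM in the growing KO libraries, a log2 difference of 5.61 ± 0.477 (adjusted p 0.00016). Its receptor Cd200r1, a myeloid gene, was at 13.1, 16.5 and 7.68 TPM against 0.00, 0.05 and 0.00 TPM. Cd200r1 had entered the test through dormant KO alone. In the checkpoint list 6 of 17 tested genes were called higher (35.3%, against 12.2% of all genes) and 3 lower (17.6%, against 18.9%), with a median of 0.36, and 4 of the 17 had entered in that way. With median-ratio scaling 8 were called higher and 2 lower. The myeloid adaptor Tyrobp reached a level near that of Cd200, at 721, 516 and 458 TPM against 23.4, 15.9 and 41.3 TPM. Tigit fell to 0.06, 0.52 and 6.70 TPM from 41.5, 42.4 and 15.4 TPM, and Cd47, the signal that restrains phagocytosis, to 248, 167 and 128 TPM from 424, 331 and 325 TPM, with a log2 difference of -1.03. The call of Cd47 was lost with median-ratio (-0.54) or quantile scaling (-0.68), with no filter, and without dormant KO replicate 3 or growing KO replicate 1.

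Slurp1 did not stand alone in its family. Of 11 tested Ly6 and uPAR genes, 9 were called higher (81.8%, against 12.2% of all genes) and 0 lower (median 2.84), and 6 with all 12 libraries in the fit. Of the 11, 1 had entered through dormant KO alone, while 11 others of the list did not pass the filter. Ly6e was at 1217, 1146 and 1201 TPM against 362, 392 and 378 TPM, Ly6a (Sca-1) at 877, 812 and 844 TPM against 125, 148 and 102 TPM, and Ly6c1, a marker of lung endothelium, at 622, 587 and 546 TPM against 44.3, 51.1 and 45.0 TPM. Gpihbp1, which holds lipoprotein lipase on capillaries, was at 659, 500 and 583 TPM against 16.5, 29.7 and 33.5 TPM. Plaur, the urokinase receptor, was at 244, 255 and 186 TPM against 261, 270 and 237 TPM and was not called (log2 difference -0.18 ± 0.169, adjusted p 0.447). Its ligand Plau was at 2.26, 3.74 and 0.97 TPM against 5.07, 3.30 and 7.18 TPM. Reads shared between close relatives, such as Ly6c1 and Ly6c2, may be split by the estimate. The summed endothelial list stood at 1463 to 1608 TPM in dormant KO and 80.6 to 94.4 TPM in growing KO, and its part in the rise of Ly6c1, Gpihbp1 or Cd200 was not tested.

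**Figure D5:**
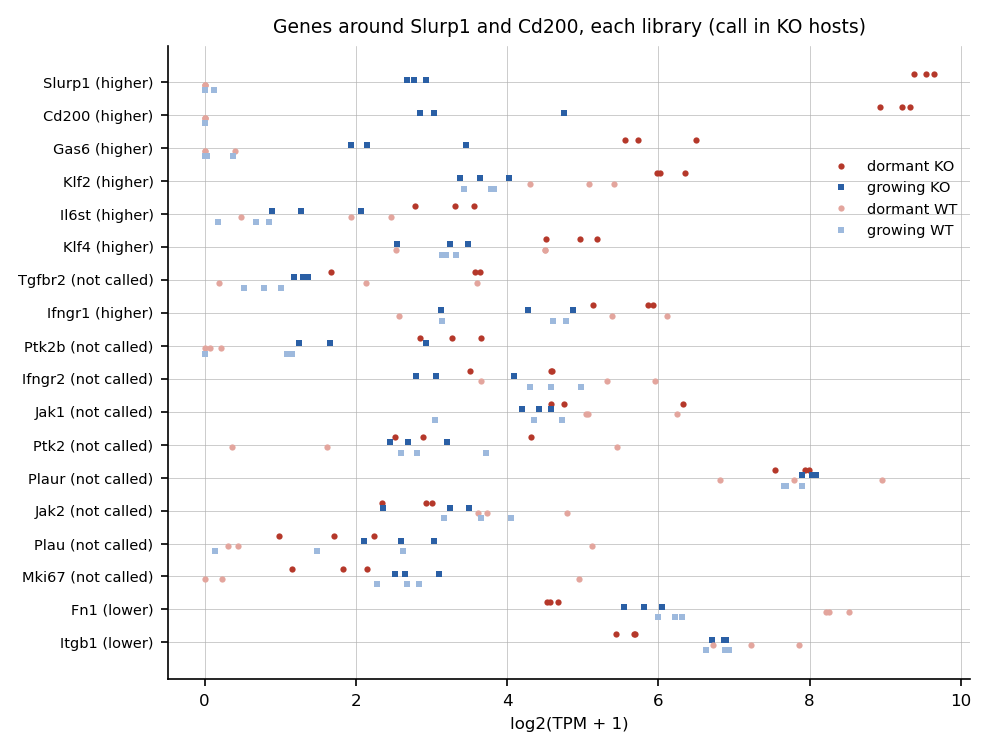
log2(TPM + 1) of the 18 tested genes of the list drawn around Slurp1 and Cd200, in each of the 12 libraries, ordered by the difference in KO hosts, with the call in brackets. Slurp1, Cd200 and Gas6 are at or near 0 in both WT groups, low in growing KO and high in dormant KO; Fn1 and Itgb1 are lower in dormant KO than in the other 3 groups.

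Of the Kruppel-like factors, Klf2 and Klf4 were called higher, Klf5 and Klf10 lower (20% each, beside 12.2% and 18.9% of all genes) and 6 of 10 were not called (median -0.24, and 0.18 with median-ratio scaling). Klf2, which maintains quiescence and is abundant in endothelium, was at 80.3, 64.0 and 62.1 TPM against 9.37, 15.3 and 11.5 TPM (log2 difference 2.43 ± 0.314, adjusted p 0.00104). Klf4 was at 21.9, 30.2 and 35.4 TPM against 8.52, 10.2 and 4.81 TPM (1.80 ± 0.422, adjusted p 0.0134). Both lower calls were lost with either other scaling. The call of Klf5 was lost without any 1 library other than dormant KO replicate 1, and that of Klf10 without dormant KO replicate 1 or 3 or growing KO replicate 2 or 3, so that 0 or 1 were left in these fits. Of 14 dormancy regulators 6 were called higher (42.9%), 1 of them (Wnt5a) having entered through dormant KO alone, and 2 lower (14.3%). Gas6, the ligand of the Axl receptor kinase, was at 52.0, 89.5 and 46.2 TPM against 9.93, 2.83 and 3.42 TPM (3.42 ± 0.509, adjusted p 0.00195), whereas Axl was at 13.7, 21.8 and 17.0 TPM against 29.4, 18.4 and 23.8 TPM and not called. Bmp4 reached 30.1, 45.5 and 42.6 TPM from 0.00, 0.00 and 3.81 TPM and the type III collagen Col3a1 140, 196 and 155 TPM from 18.1, 27.2 and 33.5 TPM. The transcription factor Sox9 and the collagen receptor Ddr2 fell by 2.62 and 1.56 log2 units. Both Col3a1 and Gas6 are also products of fibroblasts. The summed fibroblast and pericyte list rose from 1009 to 1331 TPM to 5799 to 6511 TPM. Of its 13 tested genes 7 were called higher and 2 lower, and 5 lay below 0. The part of this list in the rise of Col3a1 or Gas6 was not tested.

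The study reported CCCCACCC, a predicted site for KLF4, in the mouse and human promoters of Slurp1 and Cd200. It also reported KLF4 enriched at both promoters by chromatin immunoprecipitation in D2A1 cells overexpressing KLF4. This sequence or its reverse complement was therefore looked for in the same windows. It was found in 116 of 726 matched promoters of genes called higher (16%), in 10.5% of 1262 called lower and in 11.6% of 4696 not called. The windows of Gas6 (chr8:13494486-13494785, minus strand) and Cd200 (chr16:45409004-45409303, minus strand) are shown because both genes rose with Klf2 and Klf4, with matches in capitals.
Gas6: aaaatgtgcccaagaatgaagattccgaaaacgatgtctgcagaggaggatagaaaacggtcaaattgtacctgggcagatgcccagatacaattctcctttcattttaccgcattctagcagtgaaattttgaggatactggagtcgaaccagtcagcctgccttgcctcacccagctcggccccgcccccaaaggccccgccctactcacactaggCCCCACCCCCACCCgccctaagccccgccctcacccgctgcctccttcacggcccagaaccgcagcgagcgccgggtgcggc
Cd200: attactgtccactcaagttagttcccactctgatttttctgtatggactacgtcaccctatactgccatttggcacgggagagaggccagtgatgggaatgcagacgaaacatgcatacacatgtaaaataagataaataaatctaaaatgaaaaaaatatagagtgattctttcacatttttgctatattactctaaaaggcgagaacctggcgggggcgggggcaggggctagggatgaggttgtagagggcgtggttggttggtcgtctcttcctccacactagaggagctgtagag
Gas6 held 2 overlapping matches shortly before the start and Cd200 held none in this window. A window without the exact sequence does not show that KLF4 binds no site there. The promoter of Slurp1 was not matched. Promoters of genes called higher had a median of 13 CpG dinucleotides, against 21 for genes called lower and 22 for genes not called, and a median G+C share of 58.2%, 60.3% and 61.7%. Both are descriptions of the window.

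Signalling receptors around the deleted pathway were measured in the same libraries. Tgfbr2 was at 10.9, 2.19 and 11.5 TPM in the dormant KO libraries, against 1.27, 1.58 and 1.47 TPM in the growing KO libraries (log2 difference 1.68 ± 0.639, adjusted p 0.0766), and since it had been deleted in host myeloid cells only, these values do not check the labels. Of 21 TGF-beta ligands, receptors and Smads 6 were called higher (28.6%, against 12.2% of all genes) and 1 lower (4.76%), with a median of 1. The inhibitory Smad6 was at 8.04, 7.32 and 7.48 TPM and listed at 0 in each growing KO library, so that it entered through dormant KO alone, and the BMP receptor Bmpr2 was at 9.46, 11.0 and 17.2 TPM against 0.58, 1.41 and 0.34 TPM. Smad3, the transducer of TGF-beta itself, was lower, at 0.01, 0.00 and 0.36 TPM against 4.38, 3.37 and 3.30 TPM. Of the 12 interferon and IL-6 type receptors and kinases 4 were called higher (33.3%, against 12.2% of all genes) and 0 lower, and 2 were called with all 12 libraries in the fit. Of the 4, 1 (Lifr) had entered through dormant KO alone. Ifnar2, of the type I interferon receptor, was at 167, 182 and 142 TPM against 11.8, 31.9 and 47.0 TPM. Ifngr1 (59.7, 34.1 and 57.4 against 7.74, 28.4 and 18.3 TPM) and Il6st (5.89, 8.93 and 10.8 against 0.85, 1.43 and 3.18 TPM) were called with adjusted p of 0.0412 and 0.0337. Each of these 2 calls was lost when any 1 of 4 libraries was left out, and the list count fell to 1 without growing KO replicate 1 and to 2 without dormant KO replicate 3 or growing KO replicate 2. Jak1, Jak2 and Ifngr2 were not called, with log2 differences of 0.81, -0.27 and 0.92.

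Adhesion genes were called no more often than genes at large. Fibronectin (Fn1) was at 22.1, 24.4 and 22.7 TPM in the dormant KO libraries, against 45.6, 65.3 and 54.9 TPM in the growing KO libraries (log2 difference -1.21 ± 0.274, adjusted p 0.0115), and the beta 1 integrin Itgb1 at 50.3, 42.2 and 50.6 TPM against 115, 118 and 104 TPM (-1.22 ± 0.208, adjusted p 0.00343). Both were lower without overlap, but neither reached 1 log2 unit with median-ratio (-0.73 and -0.73) or quantile scaling (-0.81 and -0.77), and Fn1 was not called without growing KO replicate 2. In their list 2 of 20 were called higher (10%) and 3 lower (15%), beside 12.2% and 18.9% of all genes (median -0.04, and 0.33 with median-ratio scaling, where 4 were called higher and 1 lower), with 1 higher without dormant KO replicate 3 or growing KO replicate 2. The focal adhesion kinase Ptk2 and its relative Ptk2b were not called, with log2 differences of 0.46 and 1.32. Of 14 matrix metalloproteinases and inhibitors 5 were called higher (35.7%) and 3 lower (21.4%), and 1 that was not called (Reck) had entered through dormant KO alone. Mmp3 and Mmp10, both stromelysins, fell, while Mmp12, the macrophage elastase, reached 112, 190 and 102 TPM from 11.8, 0.00 and 5.95 TPM. The inhibitor Timp3 rose to 27.8, 33.5 and 27.2 TPM from 1.72, 2.83 and 0.51 TPM, whereas Timp1 was at 322 ± 18.2 and 316 ± 21.2 TPM.

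Epithelial and mesenchymal genes held calls in both directions. Of 12 tested genes of epithelial junctions and keratins 4 were called higher (33.3%, against 12.2% of all genes), 2 lower (16.7%, against 18.9%) and 6 were not called, and 2 of the 4 (Cldn7 and Cldn18) had entered through dormant KO alone. Keratins 19 and 7 (Krt19, Krt7) rose by 4.51 and 4.48 log2 units, Krt19 to 267, 418 and 252 TPM from 11.9, 14.2 and 11.3 TPM, and Krt19 is at the same time a mesothelial marker in the lists used here. Keratins 8 and 18, the pair of simple epithelia, fell instead, Krt18 to 167, 249 and 159 TPM from 480, 475 and 519 TPM, although with median-ratio scaling the difference of Krt18 was -0.89 and not called. Of 14 mesenchymal genes 8 were called lower (57.1%, against 18.9% of all genes) and 2 higher (14.3%), with a median of -1.16. With either other scaling 5 were called lower and 3 higher (medians -0.67 and -0.83). The counts changed as well when 1 library was left out, with 5 lower without growing KO replicate 2 and 1 higher without dormant KO replicate 1 or 2 or growing KO replicate 1 or 2. Vim (vimentin) fell by 1.11 ± 0.129, which was under 1 with either other scaling, and Prrx1 fell by 3.40. Glutathione genes and NRF2 targets were called higher in 4 (17.4%) and lower in 5 (21.7%) of 23, near the shares of all genes, with Gstt1 at 397, 394 and 289 TPM against 14.2, 42.0 and 17.4 TPM and Gsto1, named after its value was seen, at 145, 181 and 122 TPM against 616, 575 and 566 TPM, and the lower calls numbered 3 without growing KO replicate 2.

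The same contrast exists in WT hosts, and the difference between the 2 contrasts was tested as an interaction over 13002 genes at 1 TPM or more in at least 3 of the 12 libraries. Host and library batch are the same split here, so they cannot be told apart. The interaction was called for 1312 genes (10.1%), 803 of them higher and 509 lower in the KO contrast. Without dormant WT replicate 1 there were 1205 higher calls and without dormant WT replicate 2 there were 839 lower calls, whereas without growing WT replicate 1 or 3 the lower calls numbered 329 and 328, and without replicate 3 all calls 870. Of the 1261 of these among the genes compared above, 1017 were also called between dormant KO and growing KO, 603 higher and 395 lower in both. Spp1 reached 39952, 32482 and 33468 TPM in dormant WT, beside 31819, 34070 and 33623 TPM in growing WT, where the groups overlapped, and its interaction was -4.57 log2 units (adjusted p 3.26e-09). Slurp1 was listed at 0 in every dormant WT library and in 2 of 3 growing WT libraries, and Cd200 in all 6, with interactions of 6.77 (adjusted p 6.04e-05) and 5.61 (adjusted p 0.00126). For Gas6 the interaction was 3.42 (adjusted p 0.0156, and 0.00549 to 0.108 over 22 alternatives), a call lost with a pseudocount of 0.1, with array weights, at an adjusted p of 0.01 and without growing WT replicate 1. Fn1 reached 297, 368 and 304 TPM in dormant WT, beside 62.9, 73.4 and 78.4 TPM in growing WT, so that it was higher in dormant WT and lower in dormant KO than in the matching growing libraries, and its interaction was -3.37 (adjusted p 0.000273). Itgb1 had an interaction of -1.67 (adjusted p 0.0274, and 0.00608 to 0.107 over 22 alternatives), a call lost with either other scaling and without any 1 growing library.

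Cell cycle lists had medians below 0 in both hosts. The median difference of the replication list was -2.53 in KO and -2.48 in WT hosts, with 0 of 29 members called in the interaction, and that of G2 and mitosis genes -2.65 and -1.92, with 1 called higher and 2 lower. Summed over the G2 and mitosis list, dormant libraries held 712 to 729 TPM against 3796 to 3827 TPM in growing libraries of KO hosts, and 685, 1091 and 1966 TPM against 3109 to 3369 TPM in WT hosts, where the dormant libraries varied more. Few interaction calls do not show that the hosts were alike. Cdc20, for one, was at 69.1 TPM in dormant WT and 202 TPM in growing WT on average. For other lists the medians in WT hosts were -0.02 for alveolar type 2, 0.00 for mesothelium, -0.04 for Ly6 and uPAR, -0.17 for cholesterol synthesis and 0.03 for the unfolded protein response, and the interaction was called higher for 9 of 12, 12 of 14 and 6 of 11 and lower for 3 of 17 and 7 of 20 members in that order, beside 10.1% called either way over all genes. MHC class II genes had a median of 4.16 in WT hosts and macrophage genes 1.92, so that their rise in the dormant libraries was present in either host. The dormant WT libraries agreed less with each other (mean r 0.692) than any other group, which limits what the interaction can show for single genes.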

How the data were processed

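RNA was measured in 12 libraries of GFP+ cells sorted from lungs, of which the 6 from KO hosts carry the comparison. The authors mapped reads to mm10 with STAR and deposited TPM (transcripts per 1000000) estimated with RSEM; the submitters' processing notes name STAR 2.5.2b, RSEM 1.3.3, cutadapt 1.18 and bcl2fastq 2.20. As library kit, TruSeq mRNA stands in the labels and Smart-seq2 in the study's methods. Each deposited column sums to 1000000 or 1000001 TPM, so read depth is not known, and a further 30 per-sample columns matched no label and were not used. TPM replaced the study's count test, since TPM is no count. Differences were fitted with limma 3.58.1 (R 4.3.3, lmFit and eBayes with trend, 4 residual degrees of freedom) on log2(TPM + 1), a scale that understates the change of low genes, with Benjamini-Hochberg adjustment over all genes tested, after the procedure had been tested on simulated data. Library-wide values were compared by two-sided exact permutation tests. Coordinates are from GENCODE M21 on GRCm38, matched by gene ID.

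The members, lists and tests were chosen with earlier results of these data known. Genes were named by rule: the largest log2 differences and the largest TPM differences among called, non-overlapping genes, a list around the genes the study dealt with, and in each list the most abundant and the most changed members. Cdc20, Ccnb2, Igtp and Gsto1 were named outside it, after their values were seen. Alternatives covered the pseudocount, the filter, scaling, library weights, the replicate block, the libraries in the fit, the limits of a call and leaving out each library. Results for 2 further genes that met the rule are not reported here.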

Additional observations from a re-analysis of the deposited data

Results flagged for a closer look

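The state difference differed between KO and WT hosts, by the interaction test with limma, for 1312 of 13002 genes, against 3031 at an unadjusted p under 0.05. Among the genes named with this test, the interaction was 6.77 log2 units for Slurp1, 5.61 for Cd200 and 3.42 for Gas6, each higher in the KO contrast. It was -4.57 for Spp1, -3.37 for Fn1 and -1.67 for Itgb1, each lower in the KO contrast. KO and WT libraries were made in different library batches, so host and batch cannot be told apart in any of these values.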

How the results depend on the processing

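The 3476 calls (1364 higher, 2112 lower) became 1164 (612 and 552) in a test against a difference of 1 and 1890 (819 and 1071) at an adjusted p of 0.01. Lower calls numbered 1396 with no filter, 1207 with median-ratio scaling and 1316 with all 12 libraries in the fit, where the dormant WT libraries enter the spread. Leaving out 1 library gave 1376 to 2191 lower calls. The interaction (1312 calls, 803 higher and 509 lower) gave 615 (390 and 225) at an adjusted p of 0.01, 299 lower with median-ratio scaling and 475 higher with array weights, and 870 to 1950 calls, 542 to 1205 higher and 328 to 839 lower, with 1 library left out. The cause of these shifts was not tested. No called gene named in the text changed direction under the alternatives run. Of the genes not called, Axl (0.045), Fos (0.324), Jak2 (0.163) and Plaur (0.317) were above 0 with median-ratio scaling, Fos (0.078) and Plaur (0.188) with quantile normalization, and leaving out 1 library gave Cdkn1a -0.124 to 0.193, Ptk2 -0.082 to 0.817 and Timp1 -0.017 to 0.079. Of 127 named genes, 110 kept direction and call with median-ratio scaling and 124 with the replicate block. With all 12 libraries in the fit the calls of Birc5, Btg2, Cdc20, Cfb, Cxcl9, Gpihbp1, Ifnar2, Ifngr1, Igtp, Klf10, Ly6c1 and Psmd2 were lost, with a pseudocount of 5 those of Gas1, Il6st and Smad3, and with median-ratio scaling that of Cxcl5 besides those given in the report. Replicate numbers were not taken as pairs, since deviations of same-numbered libraries correlated at 0.0206, 0.0209 and 0.00919. With the replicate block there were 3197 calls, 1249 higher and 1948 lower, and 1048 in the interaction. The 3 libraries a group, an unknown depth and genes at 0 limit what can be seen of low genes.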
